A study of Sus scrofa with 22 samples.

Results

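A set of 10 circadian clock genes was followed across 22 RNA sequencing libraries of the jejunal mucosa (the nutrient-absorbing inner layer of the mid small intestine) of Ossabaw pigs. The members were ARNTL (also called BMAL1), CLOCK, PER1, PER2, PER3, CRY1, CRY2, NR1D2, DBP and TEF. They were chosen by name, and all 10 were found among the 24358 genes of the files. TEF was singled out, with the clock list around it, for its difference between pigs with and without atorvastatin under the heart healthy pattern. Values of the members in that comparison are therefore given as a description, with no test.

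The groups were WD_S (7 pigs), HHD_S (8 pigs) and HHD (7 pigs). WD_S pigs ate a Western dietary pattern, with butter fat, added cholesterol, sugar and white flour, together with atorvastatin, a drug that inhibits cholesterol synthesis. HHD_S pigs ate a heart healthy pattern, built on vegetable oils, whole wheat and oats with dried fruit and vegetables, together with atorvastatin. HHD pigs ate the heart healthy pattern alone. All pigs were Ossabaw, ate their pattern for 6 months and received 38% of energy as fat. Fish oil capsules (1000 mg) were part of the heart healthy pattern in HHD_S and HHD alike. The drug was given at 20 mg daily until month 3 and at 40 mg daily from then on. Sample labels and series text disagree on whether WD_S pigs received the drug, and the sample labels, which say that they did, were followed. A Western group without atorvastatin was not analysed here. For each pig, sex, age and hour of tissue collection are not given in the labels used here.

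Each library held between 15.3 and 31.6 M unique exon reads. Levels are CPM, the reads of a gene as a proportion of all reads counted in its library, scaled by TMM, a method that corrects for differences in library composition. Enterocyte markers were abundant: 8 of the 10 on the list, among them SI, FABP2 and ANPEP, were in the files and passed the filter on low counts, and their summed level ran from 26030 to 52910 CPM in WD_S, from 19700 to 51150 CPM in HHD_S and from 26070 to 47940 CPM in HHD. In whole mucosa, fewer cells of a type and less RNA per cell cannot be told apart. Libraries came from 2 library pools, named 3 and 4 in the deposited file names, with 13 and 9 libraries.

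The mammalian clock is a feedback loop. ARNTL and CLOCK proteins pair on DNA and switch on the PER and CRY genes, whose proteins then block that pair. A second loop runs through NR1D2 (also known as REV-ERB beta), a repressor of ARNTL, and the output factors DBP and TEF, which bind the same DNA element, pass the rhythm on to other genes. In tissues of rodents, including the gut, ARNTL messenger peaks at roughly the opposite time of day from DBP, TEF and PER3 messenger.

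The activator ARNTL lies on chromosome 2 from 45895637 to 46025174 (Sscrofa11.1, RefSeq gene span, matched by symbol, as for the other spans given here). Its level was 10.2 CPM at the lowest, 16.2 at the median and 34.8 at the highest in WD_S. The same 3 values were 10.3, 17.7 and 29.8 CPM in HHD_S and 8.73, 24.7 and 33.2 CPM in HHD. The 3 groups covered nearly the same range. In WD_S the values split into 4 pigs at 10.2 to 16.2 CPM and 3 pigs at 32.1 to 34.8 CPM. The 3 high pigs, WD_S 5, WD_S 6 and WD_S 7, were all of library pool 4. WD_S 4, also of pool 4, was the lowest, and the other low pigs were of pool 3. Over all libraries the highest exceeded the lowest by 3.99-fold. CLOCK, the partner of ARNTL, spanned a narrower range of 1.94-fold, with 61.3 ± 13.7 CPM in the 7 WD_S pigs, 59.8 ± 12.1 CPM in the 8 HHD_S pigs and 61.1 ± 6.16 CPM in the 7 HHD pigs (mean ± SD).

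The PER genes encode the repressors that accumulate late in the cycle. PER3 (chromosome 6, 68487634 to 68548718) had a lowest, median and highest level of 27.6, 52.4 and 85.2 CPM in WD_S, of 30.1, 62.9 and 90.2 CPM in HHD_S and of 20.6, 33.3 and 81.5 CPM in HHD. In HHD the highest value, that of HHD 5, stood well above the median. PER2 averaged 38.3 ± 9.20 CPM in the 7 WD_S pigs, 42.4 ± 16.8 CPM in the 8 HHD_S pigs and 30.7 ± 14.5 CPM in the 7 HHD pigs (mean ± SD). PER1, which also responds directly to glucocorticoid hormones in mammals, averaged 225 ± 86.6 CPM in the 7 WD_S pigs, 259.6 ± 100.6 CPM in the 8 HHD_S pigs and 189.6 ± 81.4 CPM in the 7 HHD pigs (mean ± SD). The lowest PER2 levels of their groups were 12.8 CPM in HHD_S 7 and 9.54 CPM in HHD 7.

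The cryptochromes CRY1 and CRY2, the partners of PER proteins in repression, varied little. CRY1 averaged 27.2 ± 4.14 CPM in the 7 WD_S pigs, 24.0 ± 2.93 CPM in the 8 HHD_S pigs and 27.1 ± 4.95 CPM in the 7 HHD pigs (mean ± SD), and CRY2 averaged 53.0 ± 7.82, 49.4 ± 10.02 and 46.4 ± 7.48 CPM in the same 3 groups (SD, n = 7, 8 and 7). Each spanned about the same range over all libraries, 1.81-fold for CRY1 and 2.05-fold for CRY2. The annotated span of CRY1 overlaps 4 other RefSeq entries, among them MTERF2 and TMEM263, and that of CLOCK overlaps TMEM165, so reads in shared sequence are uncertain for CRY1 and CLOCK.

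NR1D2 (chromosome 13, 10756954 to 10791219) had a lowest, median and highest level of 53.4, 60.8 and 134 CPM in WD_S, 67.4, 111 and 176 CPM in HHD_S and 36.5, 55.7 and 171 CPM in HHD. All 8 HHD_S pigs lay above the medians of WD_S and HHD, and the highest HHD value again belonged to HHD 5. In WD_S, WD_S 3 and WD_S 4 stood at 134 and 125 CPM and the other 5 pigs between 53.4 and 64.0 CPM. DBP (chromosome 6, 53986955 to 53993044) had corresponding values of 6.36, 13.0 and 30.6 CPM in WD_S, 4.66, 23.8 and 32.2 CPM in HHD_S and 4.74, 11.4 and 34.8 CPM in HHD. Its highest library exceeded its lowest by 7.48-fold, the widest range of the 10 genes.

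TEF (chromosome 5, 7119354 to 7135171) was counted from 81 to 337 reads per library, the fewest of the set. Its lowest, median and highest levels were 5.37, 7.71 and 14.7 CPM in WD_S, 6.36, 12.7 and 16.4 CPM in HHD_S and 4.32, 5.90 and 11.3 CPM in HHD. Of the HHD_S pigs, HHD_S 7, HHD_S 8 and HHD_S 3 lay at 6.36, 6.86 and 11.03 CPM, within the range of HHD. In turn HHD 3 and HHD 5, at 7.16 and 11.3 CPM, lay within the range of HHD_S. TEF means ran in the order HHD_S, WD_S, HHD, an order shared by 6 of the 10 members (PER1, PER2, PER3, NR1D2, DBP and TEF). HHD_S above HHD is the difference that singled out TEF, and the share of all genes with this order was not computed. Nothing is read from this count. ARNTL, CLOCK and CRY1 had their lowest mean in HHD_S. For all 10 members every pair of groups overlapped, and the share of all genes that overlap was not computed.

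**Figure D1:**
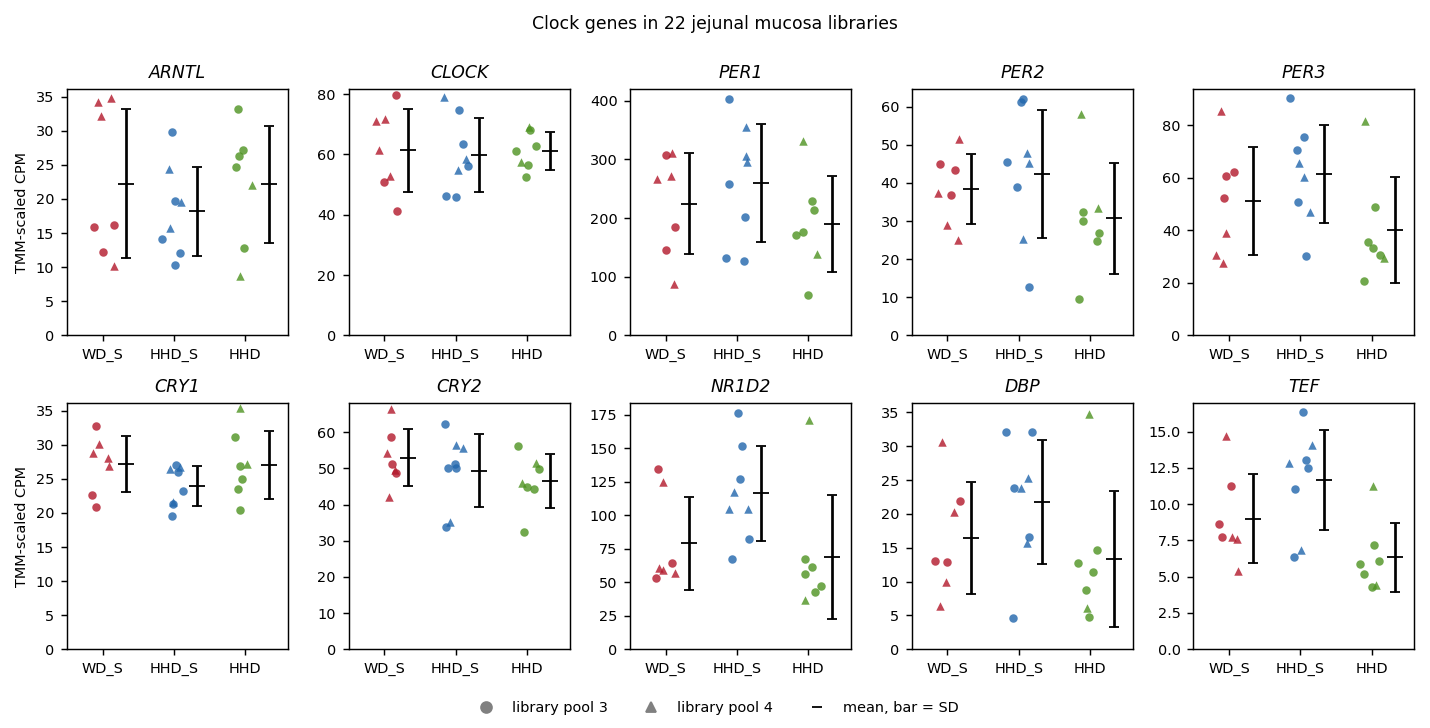
Level of each clock gene (TMM-scaled CPM, vertical axis from 0) in every library of WD_S, HHD_S and HHD. Circles are library pool 3 and triangles pool 4, and the bar beside each group is its mean with the SD. All 10 genes overlap between the groups, and single HHD pigs reach 34.8 CPM for DBP and 171 CPM for NR1D2.

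Pigs of the same group differed in most clock genes by more than in a typical gene. The SD of log2 CPM within groups was 0.87 for DBP, 0.67 for PER1, 0.67 for PER2, 0.65 for ARNTL, 0.59 for NR1D2, 0.57 for PER3 and 0.47 for TEF, against a median of 0.30 over the 13626 genes tested. Among the 11773 genes whose mean log2 CPM reached 1, DBP lay at percentile 98.1 of this SD, ARNTL at 95.1 and TEF at 86.3. CLOCK, CRY1 and CRY2 had SDs of 0.27, 0.22 and 0.27, below the median of all genes tested.

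**Figure D2:**
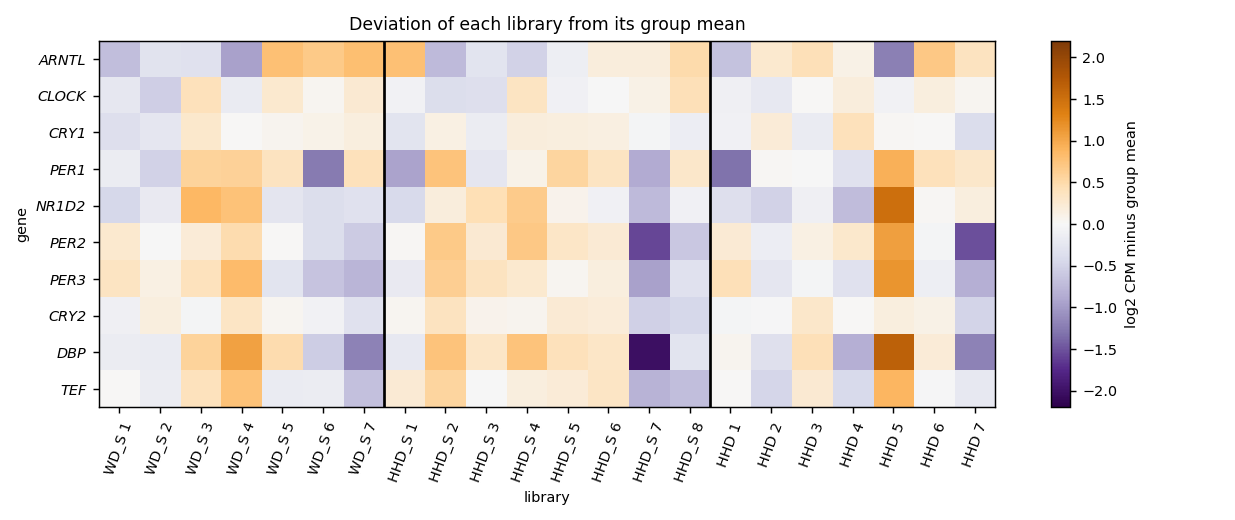
Deviation of each library (columns, ordered by group) from its group mean in log2 CPM, for each clock gene (rows). The rows from NR1D2 to TEF tend to share their colour within a library. The ARNTL row tends to have the opposite one, as in HHD 5. The PER1 row follows that block less closely, and in HHD 1 it was -1.32 where PER3 was 0.42.

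These differences between pigs were shared across several of the members. Deviations from the group mean, which do not depend on the group difference that singled out TEF, were correlated for all 45 pairs of members over 22 libraries. Of these, 20 passed an adjusted p of 0.05 (two-sided permutation test with 100000 shuffles within groups, Benjamini-Hochberg over 45 pairs), 15 with a positive and 5 with a negative r. The share of all gene pairs that would pass the same test was not computed. The positive ones joined PER2, PER3, CRY2, NR1D2, DBP and TEF, with PER1 joined to NR1D2 and DBP, and their r ran from 0.51 to 0.89. Within that block NR1D2 did not pass with PER2 (r = 0.51, permutation adjusted p = 0.0647) or with CRY2 (r = 0.36, permutation adjusted p = 0.166). The 5 negative ones all held ARNTL, against PER3, TEF, PER2, NR1D2 and DBP, with r from -0.84 to -0.57. By Spearman's rho 19 pairs passed, and ARNTL with NR1D2 did not (rho = -0.45, adjusted permutation p = 0.0802). The r of ARNTL with NR1D2 was -0.35 without the 2 farthest libraries and -0.22 within pool 3. That of ARNTL with DBP was -0.37 and -0.36 in the same 2 settings. PER1 with DBP, the weakest of the 20, passed in 11 of 31 alternative settings. All 20 had the same sign within each group and within each library pool taken alone. At the smaller numbers of a single pool, 3 pairs passed in pool 3 and 8 in pool 4. Whether hour of collection differed between pigs was not tested, and read depth had an r between -0.16 and 0.28 with the members' deviations.

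TEF varied with DBP, its relative, across pigs (Pearson r = 0.86, permutation p = 1e-05, the smallest the test can give, adjusted p = 0.00015; Spearman rho = 0.83, permutation p = 3e-05, n = 22). Without the 2 libraries farthest from the median r was 0.79, and it was 0.85 within pool 3 and 0.90 within pool 4. TEF and PER3 had an r of 0.84 (permutation p = 2e-05, adjusted p = 0.00018) and a rho of 0.84 (permutation p = 4e-05), with 0.75 without the 2 farthest libraries, 0.74 within pool 3 and 0.93 within pool 4. Of the 13625 other genes tested, DBP had the highest correlation with TEF and PER3 the next, and CRY2, PER2 and NR1D2 ranked 8, 13 and 16. An r of at least 0.7 with TEF was reached by 31 genes, 0.228% of those tested.

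**Figure D3:**
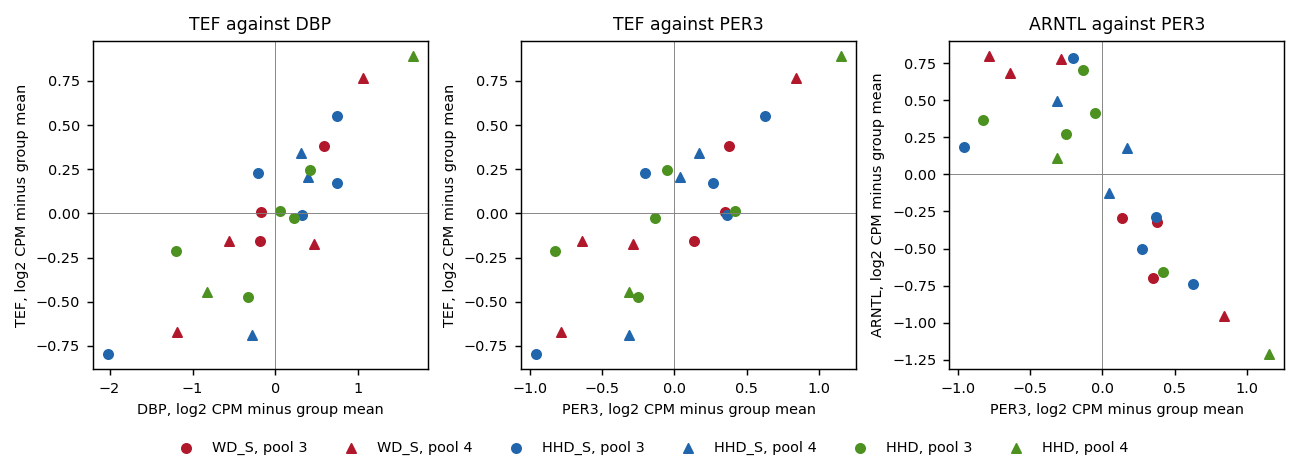
Deviation from the group mean in log2 CPM of TEF against DBP, of TEF against PER3 and of ARNTL against PER3, 1 point per library, coloured by group, with circles for library pool 3 and triangles for pool 4. TEF goes up with DBP and PER3 (r = 0.86 and 0.84) and ARNTL goes down as PER3 goes up (r = -0.84).

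ARNTL ran opposite to PER3 (Pearson r = -0.84, permutation p = 3e-05, adjusted p = 0.000225; Spearman rho = -0.81, permutation p = 5e-05, n = 22). The r was -0.76 without the 2 farthest libraries, -0.65 within pool 3 and -0.95 within pool 4, and PER3 was the most negatively correlated of all 13625 other genes with ARNTL. ARNTL and TEF had an r of -0.63 (permutation p = 0.00309, adjusted p = 0.00869) and a rho of -0.59 (permutation p = 0.00642). That relation was -0.43 without the 2 farthest libraries, -0.23 within pool 3 and -0.89 within pool 4. ARNTL and CLOCK had an r of 0.43 that did not pass (permutation p = 0.0579, adjusted p = 0.113). CRY1 and CLOCK passed with no other member, their smallest adjusted p being 0.155 and 0.0777 in the same permutation test.

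**Figure D4:**
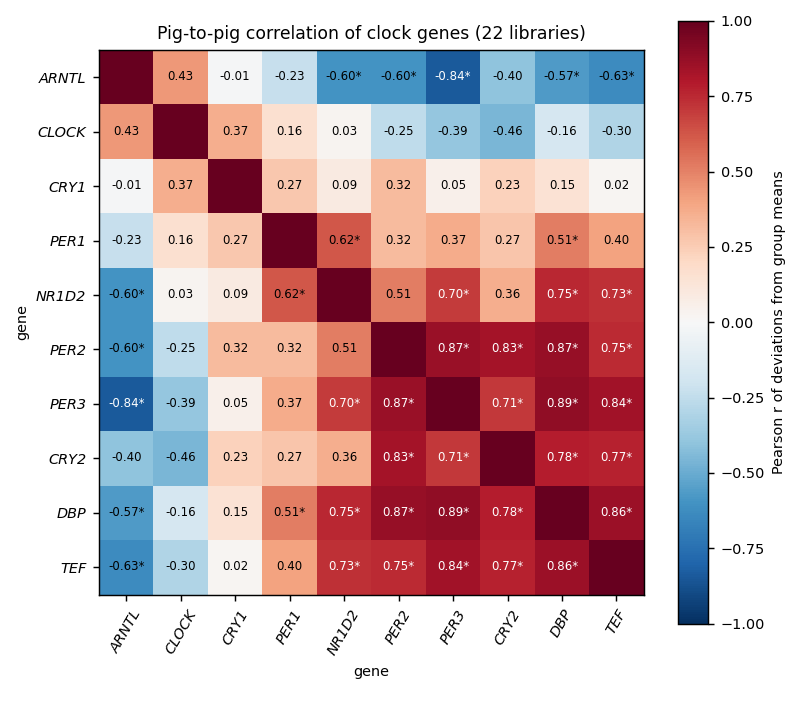
Pearson r between the clock genes (both axes) of deviations from group means over 22 libraries, with an asterisk at an adjusted p under 0.05. The block from NR1D2 to TEF is positive throughout, with r from 0.36 to 0.89, and the ARNTL row is negative against it.

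Further clock genes from a fixed list of 19, of which 17 passed the filter on low counts, were set against DBP and ARNTL in the same way, in a family of 62 relations. Of these, 7 passed with DBP (two-sided permutation test, Benjamini-Hochberg over 62). The strongest was HLF, the closest relative of DBP and TEF, with an r of 0.79 (permutation p = 5e-05, adjusted p = 0.00155) and a rho of 0.74 (permutation p = 0.00032), and with 0.69 without the 2 farthest libraries, 0.81 within pool 3 and 0.80 within pool 4. The repressors BHLHE41, BHLHE40 and CIART were also positive, with r between 0.66 and 0.71. NFIL3, a repressor that binds the same element as DBP and TEF, was negative, with an r of -0.65 (permutation p = 0.0026, adjusted p = 0.0124) and a rho of -0.45 (permutation p = 0.0426, adjusted p = 0.155), and with -0.42 without the 2 farthest libraries. TIMELESS, which acts in DNA replication, had an r of -0.63. By Spearman's rho BHLHE40, NFIL3 and TIMELESS did not pass (adjusted permutation p from 0.107 to 0.155). Over the 13625 other genes tested, 0.734% had an r of at least 0.7 with DBP and 0.719% had -0.7 or lower. These limits are stricter than passing, and the share of all genes that would pass was not computed. With ARNTL, 2 of the 17 passed. Over all genes, 0.0734% had an r of at least 0.7 with ARNTL and 0.0514% had -0.7 or lower. NPAS2, which can replace CLOCK beside ARNTL, was positive with an r of 0.71 (permutation p = 0.00097, adjusted p = 0.0093), a rho of 0.74 (permutation p = 0.00044), 0.69 without the 2 farthest libraries, 0.61 within pool 3 and 0.60 within pool 4. CIART was negative with an r of -0.63 (permutation p = 0.00251, adjusted p = 0.0124), -0.46 without the 2 farthest libraries, -0.42 within pool 3 and -0.71 within pool 4, and did not pass by Spearman's rho (-0.52, adjusted permutation p = 0.0648).

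PER1 varied with a further set of genes. Of 17 stress and glucocorticoid genes on a fixed list, 14 passed the filter and 5 passed with PER1 in the same family of 62 relations, all of them positive. They were ZBTB16, TSC22D3 (GILZ), FKBP5, KLF9 and PDK4, known targets of the glucocorticoid receptor. SGK1, CEBPD and DUSP1, on the same list, did not pass with PER1, with r values of 0.32, 0.29 and -0.03. KLF9 and PDK4 are also on the list of clock output genes given further below. ZBTB16 had an r of 0.80 with PER1 (permutation p = 5e-05, adjusted p = 0.00155) and a rho of 0.73 (permutation p = 0.00037), with 0.76 without the 2 farthest libraries, 0.87 within pool 3 and 0.77 within pool 4. FKBP5, a chaperone partner of that receptor, had an r of 0.69 (permutation p = 0.00077, adjusted p = 0.0093) and a rho of 0.61 (permutation p = 0.00542), with 0.59 without the 2 farthest libraries. TSC22D3, KLF9 and PDK4 had r values of 0.77, 0.68 and 0.66 and rho values of 0.83, 0.65 and 0.69, and within a single pool their r ran from 0.52 to 0.83. Over all genes, 0.0661% had an r of at least 0.7 with PER1, a stricter limit than passing. With DBP, 1 of the 14 passed, TSC22D3, with an r of 0.59 (permutation p = 0.00584, adjusted p = 0.0241), and FKBP5 had an r of 0.03 with DBP (permutation p = 0.887). Whether the relations with PER1 and with DBP differ was not tested. The immediate early genes FOS, JUN, EGR1, ATF3 and IER2 had r values between -0.19 and 0.06 with PER1, and IER3 had one of -0.26.

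Among 10263 other genes that have a symbol and a mean log2 CPM reaching 1, those most like TEF across the 22 libraries were RTN4 (r = 0.82), D2HGDH (0.78), SYNE4 (0.78), UBXN6 (0.78) and RAP2A (0.77), and those most opposite were LIG3 (-0.78), LEO1 (-0.76), SFPQ (-0.76), NARS (-0.74) and LSG1 (-0.74). For ARNTL the most alike were ZHX3 (r = 0.75), JARID2 (0.75), COLEC10 (0.73), ARRDC4 (0.71) and SOX13 (0.71), and the most opposite were MYL4 (-0.76), APRT (-0.74), ENO3 (-0.71), AES (-0.70) and AGA (-0.69). These values describe the ends of a ranking of all genes.

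Setting WD_S against HHD_S compares the clock genes between dietary patterns in pigs that, by the sample labels, all took atorvastatin. No member passed edgeR's quasi-likelihood test with Benjamini-Hochberg adjustment over all genes, each with an adjusted p of 0.9995, and none did by DESeq2. Over all genes the share called was 0%. HHD_S libraries also enter the comparison that singled out TEF. At an unadjusted p under 0.05, 0 of 10 members stood against 2.92% of all genes. The fold change was above 0 for 4 of 10 members, where it was for 47.1% of all genes, with a median log2 fold change of -0.21 for members and -0.01 for all genes. NR1D2 had the lowest value, with 79.0 ± 34.9 CPM in the 7 WD_S pigs and 116 ± 35.4 CPM in the 8 HHD_S pigs (mean ± SD), or -0.59 on the log2 scale (SE 0.308). It was the 1 member at least 1.5-fold lower, a size reached by 0.683% of all genes, and 0 members were at least 1.5-fold higher, against 1.01%. Its 95% interval ran from 0.424 to 1.04 as a fold. The log2 fold change was -0.47 for DBP (SE 0.411) and -0.39 for TEF (SE 0.240), with intervals from 0.397 to 1.31 and from 0.540 to 1.09. The intervals of CLOCK (0.826 to 1.22) and CRY1 (0.939 to 1.30) were narrower. Within pool 3 and pool 4 the log2 fold change was -0.51 and -0.53 for NR1D2 and -0.35 and -0.34 for TEF.

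In the comparison of HHD_S with HHD, the comparison with and without the drug on one dietary pattern, the members' values are those that led to their choice. Of the 10 members, 7 had a fold change above 0, against 52.6% of all genes, and 4 were at least 1.5-fold higher, against 0.683% of all genes. None was at least 1.5-fold lower, against 0.8%. Nothing is read from these shares. TEF averaged 11.6 ± 3.46 CPM in the 8 HHD_S pigs and 6.33 ± 2.39 CPM in the 7 HHD pigs (mean ± SD), or 0.88 higher in HHD_S on the log2 scale (SE 0.239). The same log2 difference was 0.77 for NR1D2 (SE 0.306), 0.72 for DBP (SE 0.408), 0.62 for PER3 (SE 0.282) and -0.33 for ARNTL (SE 0.309). The 2 pools differed in these values. Within pool 3, with 5 pigs a group, the log2 fold change was 1.04 for TEF, 1.13 for NR1D2, 1.05 for DBP and 0.89 for PER3. Within pool 4, with 3 HHD_S and 2 HHD pigs, it was 0.52 for TEF, 0.07 for NR1D2, 0.08 for DBP and 0.06 for PER3. In pool 4 alone ARNTL stood at 0.38 and PER2 at -0.21, of opposite sign to their values over both pools, which were -0.33 and 0.47. HHD 5 is 1 of those 2 HHD pigs, and without it the values over both pools were 1.11 for TEF, 1.23 for NR1D2, 1.18 for DBP and 0.94 for PER3. Set against PER3 in the same library, the log2 ratio of TEF was -2.40 ± 0.29 in the 8 HHD_S pigs and -2.60 ± 0.36 in the 7 HHD pigs (mean ± SD), a smaller difference than that of TEF itself.

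**Figure D5:**
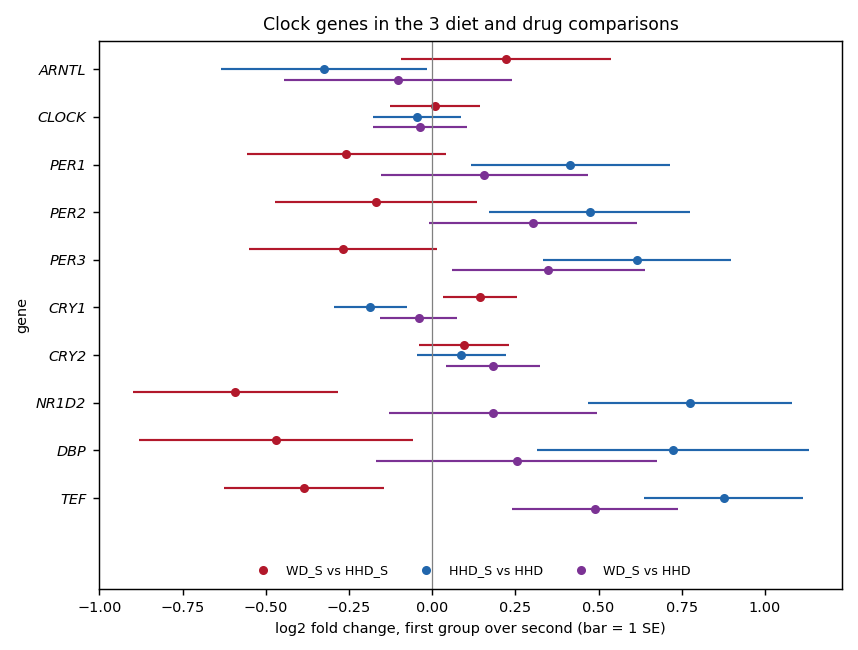
Log2 fold change (horizontal axis, bar = 1 SE) of each clock gene in WD_S over HHD_S, HHD_S over HHD and WD_S over HHD. Values of HHD_S over HHD are above 0 for 7 of 10 genes, and the 3 comparisons share libraries.

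By the sample labels, both diet and drug separate WD_S from HHD, and this comparison shares its libraries with the other 2. No member passed edgeR's test, each with an adjusted p of 0.9997, or DESeq2. Over all genes 0.00734% were called, and at an unadjusted p under 0.05 there were 0 of 10 members against 3.41% of all genes. The fold change was above 0 for 7 of 10 members and 49% of all genes, and 0 members were at least 1.5-fold higher or lower, against 1.08% and 1.11%. TEF averaged 9.002 ± 3.06 CPM in the 7 WD_S pigs and 6.33 ± 2.39 CPM in the 7 HHD pigs (mean ± SD), or 0.49 on the log2 scale (SE 0.250), with a 95% interval of the fold from 0.977 to 2.02. The log2 fold change of PER3 was 0.35 (SE 0.291), that of PER2 0.30 (SE 0.312) and that of DBP 0.25 (SE 0.422). Within pool 4 those of PER3, PER2 and DBP were -0.28, -0.35 and -0.28.

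Of the further clock genes, none of 17 passed over all genes in a comparison with WD_S by edgeR. Values above 0 were found for 7 of the 17 against HHD_S, where 47.1% of all genes had one, and 11 of the 17 against HHD, where 49% did. BHLHE40, a clock repressor induced by many signals, stood at 119 ± 20.3 CPM in the 7 WD_S pigs, 87.3 ± 21.02 CPM in the 8 HHD_S pigs and 86.4 ± 19.3 CPM in the 7 HHD pigs (mean ± SD). On the log2 scale WD_S was 0.46 above (SE 0.161, edgeR adjusted p = 0.9995) HHD_S and 0.48 above (SE 0.169, edgeR adjusted p = 0.9997) HHD. NR1D1, the paralog of NR1D2, stood at 11.7 ± 10.3 CPM in the 7 WD_S pigs and 27.7 ± 10.3 CPM in the 8 HHD_S pigs (mean ± SD), or -1.25 on the log2 scale (SE 0.555, edgeR adjusted p = 0.9995). At an unadjusted p under 0.05 there were 2 of the 17, BHLHE40 and NR1D1, against HHD_S and 1, BHLHE40, against HHD, beside 2.92% and 3.41% of all genes.

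The library pools themselves were compared in the same fit. All 10 members had a fold change above 0 in pool 4 over pool 3, against 49.9% of all genes, with log2 values from 0.03 for CRY2 to 0.37 for PER1. None was at least 1.5-fold higher or lower, against 0.778% and 0.917% of all genes. None passed edgeR's test (adjusted p from 0.916 to 0.984) or DESeq2, and 0% of all genes did, and at an unadjusted p under 0.05 there were 0 of 10 members against 4.42% of all genes. With HHD 5 left out PER2, PER3, CRY2, NR1D2, DBP and TEF had values below 0.

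Markers of other cell types were summed per library beside the members. Over 12 lists the r of the summed level with TEF, as deviations from group means over the 22 libraries, ran from -0.42 for T and natural killer cells to 0.34 for smooth muscle, and the r with DBP ran from -0.53 for T and natural killer cells to 0.35 for tuft cells. The summed level of 5 crypt and cell division markers had a range of 592 to 1925 CPM in WD_S, 438 to 1668 CPM in HHD_S and 771.5 to 1841 CPM in HHD, with medians of 831, 820 and 1559 CPM. Goblet cell markers had medians of 3054, 2579 and 3931 CPM in the same 3 groups. In HHD_S against HHD, 0 of 6 goblet, 0 of 6 fibroblast, 0 of 6 smooth muscle and 0 of 5 endothelial markers had a log2 fold change above 0, with medians of -0.39, -0.35, -0.19 and -0.25, and 6 of 6 markers of T and natural killer cells had one, with a median of 0.16. On the other lists, values above 0 were found for 5 of 8 enterocyte, 2 of 5 crypt and cell division, 3 of 5 tuft and 3 of 4 enteroendocrine markers. They were also found for 2 of 6 B and plasma, 1 of 7 macrophage and dendritic and 2 of 2 enteric neuron and glia markers. Over all genes 52.6% were above 0. No marker on the 12 lists passed edgeR's test over all genes in that comparison. There 1 goblet and 1 tuft marker had an unadjusted p under 0.05, and 0% and 1.81% of all genes were called by these 2 limits. No measured marker was at 0 in all libraries. Their part in the clock values was not tested.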

How the data were processed

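Jejunal mucosa RNA from 22 pigs was sequenced, and the authors deposited counts of unique exon reads per gene, 1 file a library, per the file headers. Reads went through CLC Bio software with the pig assembly Sscrofa11.1 as reference, per the labels' protocols, which give neither its version nor how reads were mapped. Unique counts leave out reads with several equally good positions. All library pairs differed by more than sampling noise (smallest reduced chi-square 25.2 over 231 pairs).

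The main test was edgeR 4.0.16 (R 4.3.3). Low genes were removed by filterByExpr at a minimum count of 10, which kept 13626, and TMM set the library scaling. One robust quasi-likelihood fit held the 3 groups and, additively, library pool (residual df 18, biological variation 25.9%). The fit was tested on simulated data. SEs are the log2 fold change divided by the root of its F value. Log2 CPM used a prior count of 2. Correlations used deviations from group means, with permutation tests (numpy 2.4.6). Benjamini-Hochberg adjustment ran over all genes, over 45 member pairs, or over 62 relations with listed genes. Alternatives covered DESeq2 1.42.0, the pool term, each pool, the groups in the fit, scaling, filters, robustness, the prior count, centring and leaving out each library.

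The members and the lists were chosen with earlier results of these data known. Named genes were all members, further clock genes with an unadjusted p under 0.05 in a comparison with WD_S or an r past 0.6 with DBP, stress genes with an r past 0.6 with PER1, and the 5 genes at each end of likeness to TEF and ARNTL. NPAS2, SGK1, CEBPD, DUSP1, IER3, the immediate early genes and the relations with ARNTL and DBP outside these limits were named after their values were seen. The relation of 1 listed gene with DBP is not reported here. Each library carries its own pig number in the labels, so p-values measure the spread between pigs. No sequence is shown, since no sequence table was used here.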

Additional observations from a re-analysis of the deposited data

Results flagged for a closer look

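HHD 5 stood apart from the other 6 pigs of its group in 3 genes. Its NR1D2 level was 170.6 CPM, its DBP level 34.8 CPM and its TEF level 11.3 CPM, each the highest of HHD and separated from the next pig by more than a Dixon test at 95% allows. The test was run on CPM, and flags on log2 CPM were not computed. In log2 CPM, NR1D2 was 7.42 in HHD 5, 6.07 in HHD 7 and 5.19 in HHD 4, the lowest. DBP was 5.13 in HHD 5, 3.89 in HHD 3 and 2.27 in HHD 7, the lowest. TEF was 3.51 in HHD 5, 2.86 in HHD 3 and 2.14 in HHD 2, the lowest. Over 30 sets of 1 gene in 1 group, 3 were flagged, where chance flags about 1 in 20 sets, and the 3 belong to genes that vary together. HHD 5 also had the lowest ARNTL level of all libraries, 8.73 CPM. Without it, 16 of 45 member pairs passed, against 20 with it.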

How the results depend on the processing

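No paired analysis was possible because each library carries its own pig number, and the labels give no replicate numbers. The number of correlated member pairs, 20, was 16 to 22 when 1 library was left out, 3 in pool 3 alone and 8 in pool 4 alone, where fewer libraries were tested. Over 620 values of the 20 pairs under 31 alternatives, 0 changed sign, 562 passed and 58 did not, and 16 pairs passed in every fit without 1 library. Leaving out HHD 7 and HHD_S 7 together, chosen after seeing the data, gave 20 pairs.

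Genes called in WD_S against HHD_S numbered 0 by edgeR (398 at an unadjusted p under 0.05), with 2 without the pool term, 4 by DESeq2 and 0 to 2 without 1 library. In HHD_S against HHD 0 were called and 1 by DESeq2 (247 at an unadjusted p under 0.05). In WD_S against HHD 1 was called, 0 in either pool alone, with total counts or without HHD 7 and HHD_S 7 together, 2 by DESeq2 and 0 to 1 without 1 library. No member was among those called by DESeq2 in a comparison with WD_S.

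Some log2 fold changes changed sign, among them those of PER2 and PER3, the highest after TEF in WD_S against HHD, and the cause was not tested. In WD_S against HHD_S ARNTL was -0.21 in pool 3 alone, and CLOCK was -0.0398 with total counts and -0.0968 to 0.0908 without 1 library. In WD_S against HHD, without the pool term ARNTL was 0.00518, CLOCK 0.00412 and CRY1 0.00581, and CRY1 was 0.00473 in pool 3 alone. In pool 4 alone ARNTL was 0.86, CLOCK 0.0259, PER1 -0.00101, PER2 -0.35, PER3 -0.28, NR1D2 -0.46 and DBP -0.28. Without 1 library, ARNTL ran from -0.36 to 0.0471, CLOCK from -0.16 to 0.0510, PER1 from -0.0304 to 0.33, CRY1 from -0.13 to 0.0312 and NR1D2 from -0.0708 to 0.71. In pool 4 against pool 3, without 1 library, PER2 ran from -0.0628 to 0.24, PER3 from -0.23 to 0.12, CRY2 from -0.0141 to 0.0890, NR1D2 from -0.23 to 0.35, DBP from -0.0980 to 0.43 and TEF from -0.12 to 0.18. Without HHD 7 and HHD_S 7 together, PER2 was -0.0111, PER3 -0.0625 and CRY2 -0.0379.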

Other observations

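Genes that the clock is known to drive in mammalian tissues were also listed. Of 11 on the list, which holds NAMPT, WEE1, PDK4 and the transporters SLC9A3, SLC15A1 and SLC5A1, 10 were tested and 0 passed edgeR's quasi-likelihood test over all genes in any of the 3 comparisons, where 0, 0 and 1 of 13626 genes did. At an unadjusted p under 0.05 there were 0 of the 10 in each comparison, beside 2.92% of all genes in WD_S against HHD_S, 1.81% in HHD_S against HHD and 3.41% in WD_S against HHD. Their median log2 fold change was 0.06 in WD_S against HHD_S, 0.08 in HHD_S against HHD and 0.08 in WD_S against HHD, against -0.01, 0.01 and -0.0041 over all genes. The summed level of these genes had an r of 0.47 with TEF and of 0.36 with DBP over 22 libraries, as deviations from group means, and most of that sum is 1 transporter, SLC5A1, at 3083 CPM on average.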
